A study of Mus musculus with 40 samples.

Results

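The mature miRNAs described here are the arms of miR-221 and miR-222, namely mmu-miR-221-3p, mmu-miR-221-5p, mmu-miR-222-3p and mmu-miR-222-5p (mmu marks the mouse and is left off below). They were chosen by name and are 4 of the 1978 mature miRNAs in the deposited count table. All 4 passed the filter on low counts in every comparison. The libraries are small RNA libraries from hippocampal CA1, the region whose pyramidal neurons send much of the output of the hippocampus. Each of the 40 libraries comes from 1 mouse. The younger groups, at 3 months, hold 5 wild-type control and 9 CaMKIIδC TG mice, and the older groups, at 6 months, hold 15 and 11. TG mice overexpress the cardiac δC splice form of calcium/calmodulin-dependent kinase II and develop heart failure, and the controls are their wild-type littermates, all on the C57Bl/6J background. The promoter of the transgene is not given in the sources used here, and the labels do not give the sex of the mice, which the study describes as mixed. Wild-type mice 1 and 2 of the younger age are labelled wild-type in their titles but TG in a separate genotype label, and were grouped by title. The study states other numbers of TG mice at each age than the labels give, and the labels were followed.

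A miRNA hairpin is cut by Drosha and Dicer into a duplex of a 5p and a 3p strand, and usually one strand is loaded into Argonaute while the other is degraded. The loaded strand finds its target mRNAs mainly through its seed, bases 2 to 8. miR-221 and miR-222 are made from neighbouring hairpins, and their 3p arms are the abundant strands in most tissues. The pair is known from endothelium and vascular smooth muscle, where targets include the receptor gene Kit and the cell cycle inhibitor genes Cdkn1b and Cdkn1c, and it is also expressed in neurons.

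The mature sequences are shown because they define the relation between the members. RefSeq (GRCm38.p6) held 3 of the 4, and miR-222-5p was not among them. Bases 2 to 8 are in capitals.
mmu-miR-221-3p: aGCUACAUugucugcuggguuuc
mmu-miR-222-3p: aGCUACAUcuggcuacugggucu
mmu-miR-221-5p: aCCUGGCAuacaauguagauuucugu
Both 3p arms carry the seed GCUACAU. Their first 8 bases are the same, and 11 of their 23 positions match without gaps, so the remainder of the sequence sets the 2 miRNAs apart. The only other mature miRNA of the reference with this seed is miR-1928, which had 0 counts in all 40 libraries, where 3 counts correspond to 0.131 to 1.56 CPM, the count scaled to the size of the library. No other mature miRNA of the reference has the seed of miR-221-5p, CCUGGCA.

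Both hairpins lie on the minus strand of chromosome X in GRCm38. Mir221 (ENSMUSG00000065422.1) is at chrX:19146294-19146388 and Mir222 (ENSMUSG00000065471.1) at chrX:19146893-19146971, with 504 bases between them. Neither lies inside another gene of the GENCODE vM21 annotation, and the nearest other gene within the window searched is Gm14636, a processed transcript 10010 bases away. The hairpins are printed with the arms held by the reference in capitals.
Mir221: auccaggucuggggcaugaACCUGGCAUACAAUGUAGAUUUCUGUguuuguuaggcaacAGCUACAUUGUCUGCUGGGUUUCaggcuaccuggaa
Mir222: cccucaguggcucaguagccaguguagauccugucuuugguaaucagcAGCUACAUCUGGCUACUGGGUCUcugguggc
Within its hairpin, miR-221-5p is at chrX:19146344-19146369 and miR-221-3p at chrX:19146307-19146329, while miR-222-3p is at chrX:19146901-19146923.

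The total counts of the libraries ranged from 2656368 to 36547011, and 3 libraries were below 5000000 (6-month-old TG mouse 9 and 6-month-old wild-type mice 4 and 5). The libraries from 3-month-old mice were deeper, with medians of 22455957 in wild-type and 29499287 in TG mice, against 14908612 and 13894826 at 6 months, so that age and depth move together. The members were well covered even in the shallow libraries, with 1029 to 67413 counts for miR-221-3p, 730 to 7507 for miR-221-5p, 5039 to 82046 for miR-222-3p and 41 to 484 for miR-222-5p. The neuronal markers miR-124-3p, miR-9-5p and miR-128-3p were present in every library and summed to between 164715 and 362862 CPM. In bulk tissue, fewer cells of a type and less RNA per cell cannot be told apart.

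miR-222-3p was the most abundant member. CPM here are relative to the miRNA counts of the library, after TMM normalization over all 40 libraries. By mean CPM over the 40 mice, miR-222-3p ranked 39th of 699 miRNAs with 3580 ± 931 CPM (SD, n = 40), miR-221-3p 61st with 1659 ± 553, miR-221-5p 122nd with 380.1 ± 103 and miR-222-5p 304th with 20.9 ± 4.8. Of the reads of the 4 members, miR-222-3p held a median of 60.8%, miR-221-3p 32.6%, miR-221-5p 6.56% and miR-222-5p 0.368%. Together they made up 0.532% of the miRNA counts (range 0.352 to 0.839%).

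miR-222-3p was measured at 3245, 2533, 3090, 4252 and 3020 CPM in the 5 wild-type mice at 3 months. The lowest, median and highest values were 2356, 2891 and 6382 CPM in TG mice at 3 months, 2690, 3484 and 6676 in wild-type mice at 6 months and 2680, 3699 and 4580 in TG mice at 6 months. The 4 ranges overlapped, and the group means went from 3228 ± 631 (SD, n = 5) in 3-month wild-type over 3470 ± 1288 in 3-month TG and 3664 ± 1014 in 6-month wild-type to 3717 ± 590 (SD, n = 11) in 6-month TG mice.

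miR-221-3p, the other strand with this seed, was at 1478, 2045, 1763, 2558 and 1742 CPM in the 3-month-old wild-type mice. Its lowest, median and highest values were 972, 1743 and 2645 CPM in 3-month-old TG mice, 669.6, 1406 and 2523 in 6-month-old wild-type mice and 719.8, 1444 and 2532 in 6-month-old TG mice. The group means went in the order 3-month wild-type, 3-month TG, 6-month wild-type and 6-month TG, from 1917 ± 411 (SD, n = 5) to 1561 ± 564 (SD, n = 11). Neighbours in this order differed by less than the SD of either group, as did those in the order of miR-222-3p.

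The 5p arms were lower in level. miR-221-5p was at 375.9, 260.1, 358.3, 397.8 and 281.1 CPM in the 3-month-old wild-type mice. The lowest, median and highest values were 218.7, 303.0 and 454.0 CPM in 3-month-old TG mice, 233.4, 351.7 and 710.3 in 6-month-old wild-type mice and 302.8, 406.1 and 592.7 in 6-month-old TG mice. miR-222-5p, the least abundant arm, was at 20.5, 13.7, 19.4, 25.6 and 14.8 CPM in the 3-month-old wild-type mice, and its lowest, median and highest values were 11.3, 17.6 and 26.3 CPM in 3-month-old TG mice, 14.7, 22.4 and 31.8 in 6-month-old wild-type mice and 20.2, 21.8 and 29.4 in 6-month-old TG mice. The means of both 5p arms were in the order 3-month TG, 3-month wild-type, 6-month wild-type and 6-month TG, and neighbours again differed by less than the SD of either group.

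**Figure D1:**
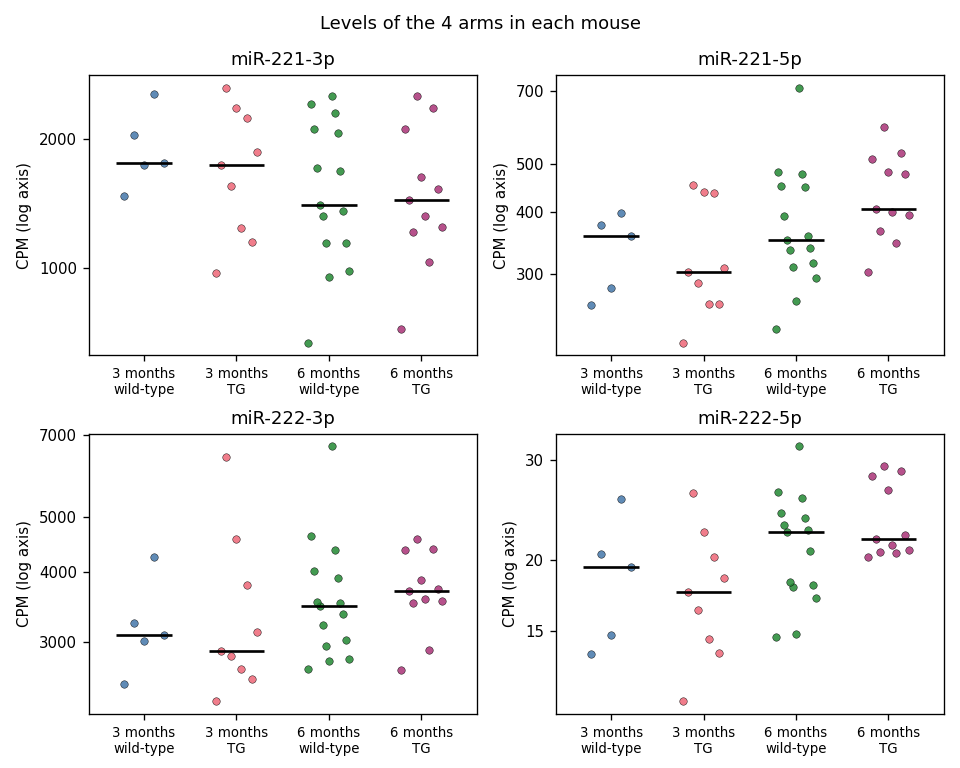
Level of each arm in CPM on a log axis, with 1 point per mouse and a line at the group median, for wild-type and TG mice at 3 and 6 months (n = 5, 9, 15 and 11). The ranges of the groups overlap for all 4 arms, and the 11 TG mice at 6 months lie at 20.2 CPM or above for miR-222-5p.

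The study asked how hippocampal miRNAs change between 3 and 6 months of age in TG mice. In this comparison the 5p arms were the members that came closest to a call. miR-222-5p went from 17.9 ± 4.6 (SD, n = 9) to 23.7 ± 3.7 CPM (SD, n = 11), a 1.34-fold difference or log2 fold change (log2FC) of 0.42 (SE 0.16, 95% confidence interval 0.10 to 0.74). Of the mice at 6 months, 11 of 11 were above the 3-month mean and 7 of 11 within the 3-month range. Its unadjusted p was 0.0124 and its adjusted p 0.0656 in the quasi-likelihood test of edgeR, adjusted by Benjamini-Hochberg over all miRNAs tested. miR-221-5p went from 330.1 ± 88.9 to 436.2 ± 87.3 CPM, a log2FC of 0.42 (SE 0.16, interval 0.09 to 0.75), with 10 of 11 mice above the 3-month mean and an edgeR adjusted p of 0.0769.

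A call needed both an adjusted p below 0.05 and a log2FC above 0.26 in size, the limits the study used. None of the 4 members was called between 3 and 6 months in TG mice, where 99 of 629 miRNAs tested (15.7%) were, 47 of them higher (7.47%) and 52 lower (8.27%). The share with an unadjusted p under 0.05 was 32.4% of all miRNAs and 2 of the 4 members. For the 3p arms, the log2FC was -0.16 for miR-221-3p (SE 0.22, interval -0.61 to 0.29, edgeR adjusted p = 0.628) and 0.12 for miR-222-3p (SE 0.17, interval -0.23 to 0.47, edgeR adjusted p = 0.644). The call on the 5p arms depends on the fit: with only miRNAs of at least 10 CPM tested, the edgeR adjusted p was 0.0476 for miR-221-5p and 0.0399 for miR-222-5p, and with 1 RUVr factor, which removes unwanted variation (the study did so too, with settings not given in the sources used here), the DESeq2 adjusted p was 9.89e-05 and 0.000117. That fit called 302 miRNAs in all. With depth as a term the log2FC of the 5p arms was 0.27 and 0.25, and with scaling to the miRNA count alone 0.23 and 0.24, with no call in either. Over all alternatives it stayed positive, between 0.23 and 0.53 for miR-221-5p and between 0.24 and 0.49 for miR-222-5p, with adjusted p up to 0.311 and 0.314. Markers of other cells moved in the same comparison, and their part in the values of the members was not tested. Apart from miR-126a-3p, the markers were not refitted with depth as a term or under other scalings. Both oligodendrocyte markers (2 of 2) fell, from a summed 1186 to 2299 CPM at 3 months to 741 to 1347 at 6 months. Of the endothelial and vessel wall markers 1 of 4 rose, miR-126a-3p. The sum of the 4 was 9582 to 16931 CPM at 3 months and 13228 to 21004 at 6 months. The others were not called, with a log2FC of -0.33 for miR-126a-5p, 0.28 for miR-143-3p and 0.029 for miR-145a-5p. Of the choroid plexus markers 2 of 5 rose (435 to 1058 and 794 to 1207 CPM), while the median log2FC of the 5 was -0.07. Of the microglial and myeloid markers 0 of 5 were called. Of the neuronal markers 1 of 3 rose, miR-128-3p (summed 164715 to 316825 CPM at 3 months and 196055 to 362862 at 6 months). The log2FC of miR-124-3p was -0.66 (edgeR adjusted p = 0.102), and the median of the neuronal markers was -0.17. Of the erythroid markers miR-451a rose and miR-144-3p fell (432 to 1371 and 640 to 1205 CPM), and of the heart and muscle markers miR-1a-3p fell (622 to 1693 and 387 to 892 CPM). The heart marker miR-208a-3p had 0 counts in 3 of the 4 groups, and no other marker was at 0 throughout a group.

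In wild-type mice, the same comparison of ages gave a log2FC of -0.29 for miR-221-3p (SE 0.24, interval -0.79 to 0.22), 0.18 for miR-221-5p (SE 0.20, interval -0.22 to 0.59), 0.17 for miR-222-3p (SE 0.18, interval -0.20 to 0.53) and 0.17 for miR-222-5p (SE 0.18, interval -0.21 to 0.54). The edgeR adjusted p ranged from 0.579 to 0.687. None of the 4 was called, as against 1 of 660 miRNAs tested (0.152%), and 15.5% of all miRNAs had an unadjusted p under 0.05 while none of the 4 members did. DESeq2 with 1 RUVr factor called miR-221-3p lower, with a log2FC of -0.38 and an adjusted p of 0.0308, in a fit that called 205 miRNAs in all. With depth as a term in the edgeR fit, its log2FC was -0.030 (edgeR adjusted p = 0.982).

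Whether the change with age differed between genotypes was tested as an interaction. The difference of the log2FC, TG minus wild-type, was 0.10 for miR-221-3p (SE 0.34), 0.20 for miR-221-5p (SE 0.25), -0.08 for miR-222-3p (SE 0.25) and 0.23 for miR-222-5p (SE 0.23). None was called by edgeR (adjusted p 0.986 to 0.987), nor was any of the 699 miRNAs tested (0%), of which 14 (2.00%) had an unadjusted p under 0.05, while DESeq2 with 2 RUVr factors called 5. The interval of the difference reached from -0.24 to 0.69 for miR-222-5p.

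The comparisons of TG with wild-type mice asked what the transgene changes at each age. At 3 months, the log2FC was -0.15 for miR-221-3p, -0.08 for miR-221-5p, 0.04 for miR-222-3p and -0.13 for miR-222-5p, with an edgeR adjusted p of 0.998 for each. At 6 months it was -0.04, 0.16, 0.0014 and 0.13 in the same order, with adjusted p from 0.992 to 0.999. edgeR called 0 of 695 miRNAs (0%) at 3 months and 0 of 612 (0%) at 6 months, with 7 (1.01%) and 3 (0.490%) at an unadjusted p under 0.05, and DESeq2 called 0 at both ages without and 87 and 4 with 2 RUVr factors. The intervals were narrowest at 6 months, where miR-222-3p was between -0.27 and 0.28 and miR-222-5p between -0.13 and 0.39. At 3 months, with 5 wild-type mice, they reached from -0.71 to 0.40 for miR-221-3p, so that this design does not separate differences inside that interval from 0.

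**Figure D2:**
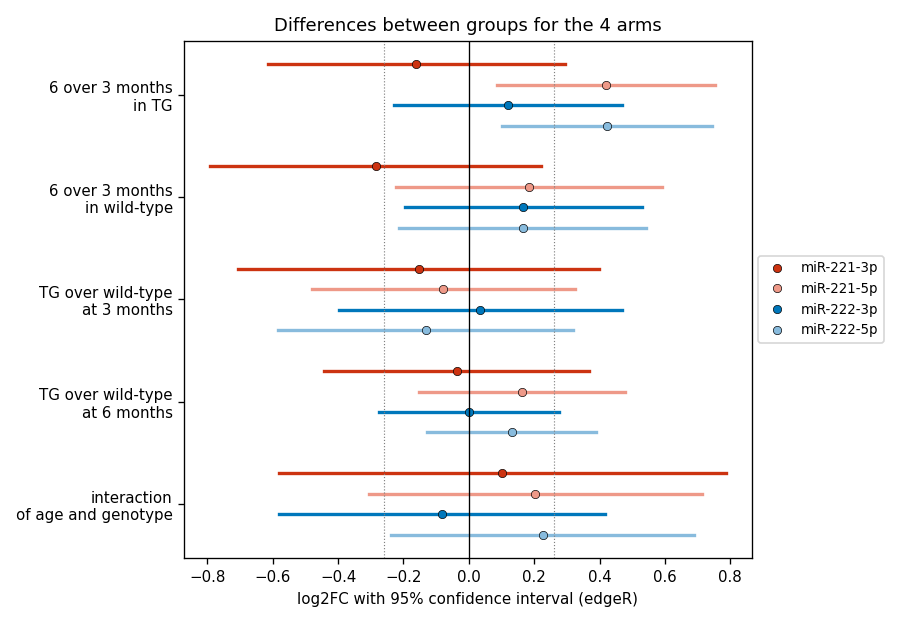
Log2FC of each arm in the 5 comparisons on a linear axis, with bars for the 95% confidence interval from the edgeR fit and dotted lines at 0.26 in both directions. The intervals of miR-221-5p (0.09 to 0.75) and miR-222-5p (0.10 to 0.74) between 3 and 6 months in TG mice lie above 0, and the other 18 include it.

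Ratios of counts within a library do not depend on how libraries are scaled. By this measure, miR-221-3p was the arm that varied most against the others. The count of miR-221-3p divided by that of miR-222-3p ranged from 0.148 to 0.932, a 6.30-fold range, and was below 1 in 40 of 40 libraries. In the 3-month-old wild-type mice it was 0.456, 0.807, 0.570, 0.602 and 0.577. The lowest, median and highest ratios were 0.195, 0.674 and 0.932 in 3-month-old TG mice, 0.148, 0.506 and 0.716 in 6-month-old wild-type mice and 0.204, 0.390 and 0.661 in 6-month-old TG mice. The groups overlapped.

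The 5p arms of the 2 hairpins kept a nearly fixed proportion. The count of miR-221-5p divided by that of miR-222-5p ranged from 13.2 to 23.0, a 1.75-fold range, and the group medians were 18.4, 18.0, 18.1 and 18.0 in 3-month wild-type, 3-month TG, 6-month wild-type and 6-month TG mice. The SD of the log2 ratio within groups was 0.18, against 0.68 for the ratio of the 3p arms. Without the 3 libraries below 5000000 counts, the ratio of the 3p arms had a 4.78-fold range and an SD of 0.57, and the ratio of the 5p arms kept its 1.75-fold range.

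The 3p arm exceeded the 5p arm in both hairpins, but to different degrees. For miR-221, the 3p to 5p ratio ranged from 1.39 to 9.18, with group medians of 6.20 in 3-month wild-type, 6.67 in 3-month TG, 4.53 in 6-month wild-type and 3.26 in 6-month TG mice. For miR-222 it ranged from 119 to 242, with medians of 166, 187, 176 and 155. The SD of the log2 ratio within groups was 0.74 for miR-221, rank 105 of 210 hairpins with both arms counted and equal to their median, and 0.22 for miR-222, rank 208 of 210. miR-222 was thus among the hairpins with the steadiest arm ratio, and miR-221 was in the middle.

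Between 3 and 6 months in TG mice, the log2 of the 3p to 5p ratio differed by -0.60 for miR-221 (SE 0.33, interval -1.28 to 0.07, limma adjusted p = 0.221) and by -0.28 for miR-222 (SE 0.14, interval -0.58 to 0.02, limma adjusted p = 0.184). Neither was called, as against 33 of 212 hairpins (15.6%). With depth as a term, the difference in TG mice was -0.010 for miR-221 (limma adjusted p = 0.987) and -0.18 for miR-222 (limma adjusted p = 0.568). In wild-type mice the differences were -0.51, or -0.041 with depth as a term, and -0.04, and between genotypes they were -0.13 (-0.40 with depth as a term) and 0.13 at 3 months and -0.23 and -0.11 at 6 months. limma called 0% of hairpins in each of these 3 comparisons, with 26 of 205, 5 of 224 and 7 of 196 at an unadjusted p under 0.05, and the lowest adjusted p of the 2 hairpins was 0.518.

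**Figure D3:**
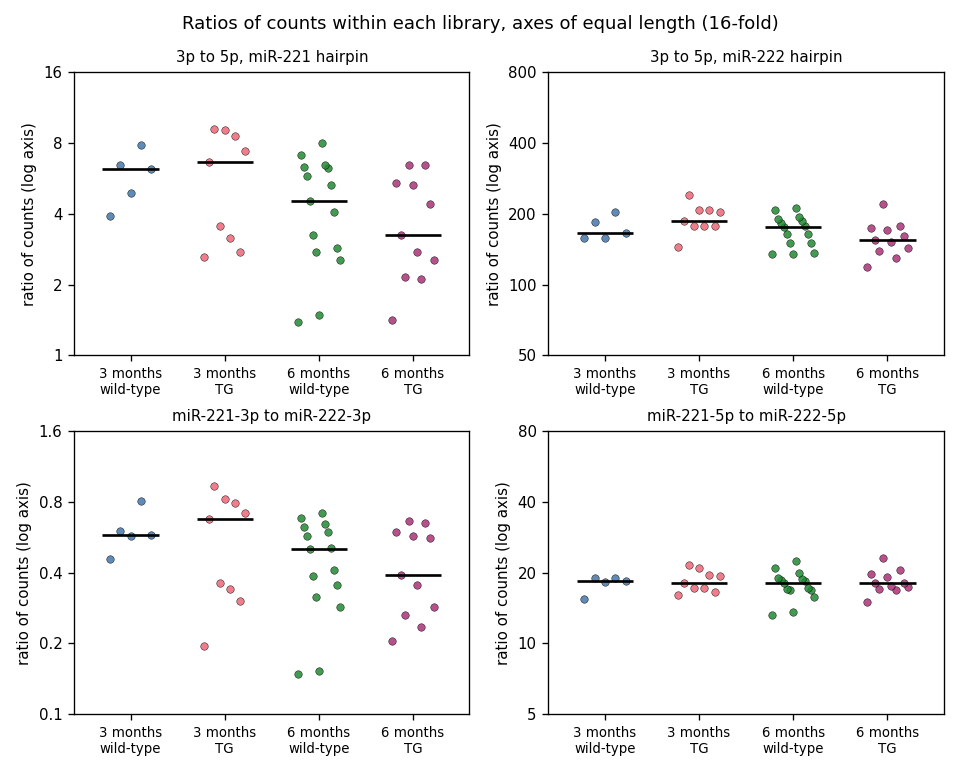
Ratios of counts within each library on log axes that all span 16-fold, with 1 point per mouse and a line at the group median. The 2 ratios that hold miR-221-3p, at the left, spread over 6.61-fold and 6.30-fold, and the others over 2.04-fold and 1.75-fold.

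Depth moved with miR-221-3p. Within groups, the log2 ratio of miR-221-3p to miR-222-3p was higher in libraries with a higher log2 miRNA count, with Pearson's r of 0.86 in 3-month-old TG mice (n = 9), 0.83 in 6-month-old wild-type mice (n = 15) and 0.70 in 6-month-old TG mice (n = 11), and Spearman's rho of 0.70, 0.59 and 0.74. Without the 2 libraries farthest from the median depth, r was 0.81, 0.39 and 0.33, so in the 6-month groups much of the relation rests on those libraries. The 3 libraries below 5000000 counts had the lowest, the second lowest and the 4th lowest ratio of the 40. Libraries of like depth also differed. The 6-month-old wild-type mice 1, 2 and 3 had ratios of 0.286, 0.315 and 0.355 at 9196557 to 11242515 miRNA counts, and mice 10 to 15 of the same group had 0.509 to 0.716 at 9222765 to 12484481. The 6-month-old TG mouse 2 was at 0.356 with 16227725 miRNA counts. Low ratios recurred at low replicate numbers in both groups of TG mice and in 6-month-old wild-type mice. TG mice 1 to 3 at 3 months had 0.195 to 0.340, and TG mice 4 to 7 had 0.674 to 0.932. At 6 months, TG mice 1 to 4 had 0.265 to 0.390, and TG mice 5 to 7 had 0.596 to 0.661. TG mouse 8 was at 0.361 and 0.236 at these ages. The 6-month-old wild-type mice 1 to 5 had 0.148 to 0.355, with mice 4 and 5 among the shallow libraries. Mice 6 to 9 of that group had 0.626, 0.506, 0.409 and 0.387. In 3-month-old wild-type mice, mouse 1 was lowest (0.456) but mouse 2 highest (0.807). What sets these libraries apart, by replicate number or depth, was not tested. For the ratio of the 5p arms, r was 0.11, -0.27 and 0.23, and without the 2 farthest libraries -0.60, 0.10 and 0.05. These are descriptions of the libraries, and the ratio and the depth come from the same libraries.

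A fit of depth beside the 4 groups, added after the data were examined, kept its sign and call for miR-221-3p under the 3 scalings tried. Its level rose by a log2 of 0.52 per doubling of the miRNA count (SE 0.08, edgeR adjusted p = 3.33e-06). The slope of miR-221-5p was -0.27 (SE 0.07, edgeR adjusted p = 0.000839). Those of miR-222-3p and miR-222-5p were -0.21 and -0.25 (edgeR adjusted p = 0.00927 and 0.0016). With scaling to the miRNA count alone, the slopes of miR-221-5p, miR-222-3p and miR-222-5p were 0.03, 0.10 and 0.05, while that of miR-221-3p was 0.81. Among all 699 miRNAs, 54.5% were called with depth, 30.2% rising and 24.3% falling, and 2 of the 4 members were called. The miR-222 arms passed the limit on the adjusted p and missed only the size limit, here applied to a slope per doubling. By the adjusted p alone, each member passed, as did 61.5% of all miRNAs. With depth as a term in the fit of 6 against 3 months in TG mice, the log2FC of miR-221-3p was 0.28 in place of -0.16 (edgeR adjusted p = 0.307). Since the 3-month-old mice had the deeper libraries, part of any difference between ages cannot be told apart from depth.

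**Figure D4:**
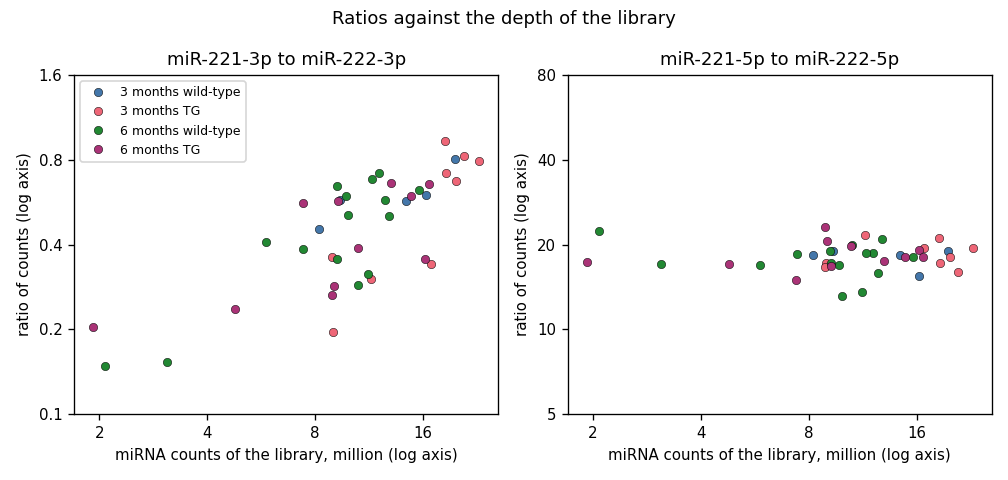
Ratio of miR-221-3p to miR-222-3p (left) and of miR-221-5p to miR-222-5p (right) against the miRNA count of the library, both axes log and both ratio axes spanning 16-fold, with 1 point per mouse colored by group. The left ratio goes from 0.148 to 0.932 and is low in the shallow libraries, while the right ratio stays between 13.2 and 23.0 at all depths.

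After TMM normalization, the members other than miR-221-3p moved together across mice, and miR-221-3p stood apart under this scaling only. After the group means were taken off the log2 CPM, Pearson's r over 40 mice was 0.87 between miR-221-5p and miR-222-5p, 0.80 between miR-221-5p and miR-222-3p and 0.78 between miR-222-3p and miR-222-5p. With scaling to the miRNA count alone these were 0.70, 0.56 and 0.57. miR-221-3p had an r of -0.43 with miR-221-5p, -0.23 with miR-222-3p and -0.43 with miR-222-5p, but with scaling to the miRNA count alone the sign turned to 0.37, 0.58 and 0.49. High correlations are frequent in these libraries, since 48.3% of the 64980 pairs of miRNAs at a mean level of 10 CPM or more had an r above 0.5 in size, and all share depth and scaling.

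The miRNAs whose pattern over the 40 mice was most like that of miR-221-3p, among 360 compared by the same group-centred r after TMM, were miR-434-3p (0.92), miR-421-3p (0.91), miR-708-5p (0.89), miR-361-5p (0.89) and miR-103-3p (0.89). For miR-222-3p they were miR-760-3p (0.84), miR-7a-5p (0.81), miR-212-5p (0.80), miR-221-5p (0.80) and miR-541-5p (0.79). The 2 lists share no miRNA, but they are short and were made after TMM only. No conclusion on the 2 arms is drawn from this.

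Other miRNAs of the settings in which miR-221 and miR-222 are known were listed for comparison. Of 10 vascular miRNAs, 1 rose and 2 fell between 3 and 6 months in TG mice, against 7.47% higher and 8.27% lower over all miRNAs tested. The median log2FC was -0.19, against -0.09 over all. miR-126a-3p, the abundant endothelial miRNA, rose from 5798 ± 1495 to 9477 ± 1507 CPM (log2FC 0.73, SE 0.14, edgeR adjusted p = 0.00146). miR-27b-3p, of the miR-23, miR-27 and miR-24 cluster, fell from 8493 ± 1343 to 6098 ± 922 CPM (log2FC -0.46, SE 0.12, edgeR adjusted p = 0.0124), and miR-296-5p fell from 3.33 ± 1.72 to 1.38 ± 0.80 CPM (log2FC -1.23, edgeR adjusted p = 0.0265). The level of miR-296-5p at 6 months is near the floor, since 3 counts amount to 1.56 CPM in the shallowest library. miR-130a-3p had a log2FC of -0.24 (edgeR adjusted p = 0.324).

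Of 5 miRNAs induced by neuronal activity, 1 rose and 0 fell in the same comparison (7.47% and 8.27% over all miRNAs), with a median log2FC of -0.12. miR-132-5p, from a hairpin that responds to CREB, went from 954 ± 285 to 1458 ± 427 CPM (log2FC 0.62, SE 0.19, edgeR adjusted p = 0.0253). miR-132-3p (log2FC 0.32), miR-212-3p (-0.46) and miR-212-5p (-0.37) did not pass, with edgeR adjusted p of 0.140, 0.206 and 0.231. Scaled to the miRNA count alone, miR-132-5p was no longer called (log2FC 0.41, edgeR adjusted p = 0.231).

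The RefSeq table names 146 other miRNAs of the count table that lie on chromosome X. Arms without an entry in it are not counted, even where the other arm of the hairpin is. Of the 146, 51 passed the filter between 3 and 6 months in TG mice. Of these, 0 rose, against 7.47% higher over all miRNAs, and 4 fell, close to the 8.27% lower over all. Their median log2FC was -0.28, against -0.09 over all miRNAs. Those that fell were miR-98-5p (log2FC -0.73) and miR-98-3p (-1.02), of the let-7 family, let-7f-2-3p (-0.89), and miR-362-3p (-1.87), with edgeR adjusted p of 0.0175, 0.0210, 0.0335 and 0.0183. Of these, miR-98-3p and miR-362-3p were near the floor at 6 months, with means of 1.98 and 1.72 CPM. With depth as a term, miR-27b-3p, miR-296-5p, miR-362-3p, miR-98-3p and let-7f-2-3p were no longer called. In wild-type mice, none of the vascular, activity-induced or other chromosome X miRNAs was called by edgeR, and 2 of 10, 2 of 5 and 7 of 52 had an unadjusted p under 0.05, against 0.152% called and 15.5% with such a p over all miRNAs.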

How the data were processed

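RNA of hippocampal CA1 was prepared by the authors with the NEBNext small RNA kit and sequenced on an Illumina HiSeq. The authors trimmed adapters with cutadapt, mapped reads to mm10 with bowtie through mirdeep2, and annotated miRNAs with miRBase. They deposited raw counts of 2128 pairs of mature miRNA and precursor and 52 spike-in entries, and the same counts as RPM (called TPM by the study), which matched counts scaled to the library total within 0.005. The miRBase release is not given in the sources used here.

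Here 1 row per mature miRNA (the precursor with the highest total) was used, without spike-ins. Levels are TMM CPM. Comparisons used edgeR 4.0.16 quasi-likelihood fits in R 4.3.3 on the groups compared, after filterByExpr (minimum count 10, minimum total 15). Arm ratios (pseudocount 0.5, mean of at least 10 counts on both arms) used limma 3.58.1. Alternatives were other scalings, filters and pseudocounts, DESeq2 1.42.0 with 0, 1 or 2 RUVr factors computed from their definition, limma on log2 of the deposited RPM, a block, and left-out mice. Tests were checked on simulated data. The named miRNAs are the 4 members, the 5 most like each 3p arm, and up to 4 of each list with the smallest adjusted p between ages in TG mice. The members and lists were chosen with earlier results of these data known. The labels give separate mice. The sources used here name no molecular identifiers, and a floor of 3 counts would cover counting error only.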

Additional observations from a re-analysis of the deposited data

Results flagged for a closer look

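Of 16 sets of values tested for a mouse far from the others (members, arm ratios and ratios between hairpins, in the groups of 5 and 9 mice), 1 was flagged, and chance flags about 1 in 20. The ratio of miR-221-5p to miR-222-5p was 15.5 in 3-month-old wild-type mouse 4, against 18.3, 19.0, 18.4 and 19.0 in wild-type mice 1, 2, 3 and 5 of this age. The groups of 11 and 15 mice were not tested.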

How the results depend on the processing

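Of 340 alternative values of the members' log2FC, 292 kept their direction and their side of the threshold, 34 changed sign and 14 became calls, and the cause was not tested. None of the 34 was called, and they lay between -0.092 and 0.28. In TG mice between 3 and 6 months, miR-221-5p was called at 10 CPM or above (0.46), with 1 or 2 RUVr factors (0.38 each) and with 3-month-old wild-type mice 1 and 2 counted as TG (0.43), and miR-222-5p in the same settings (0.45, 0.39, 0.39 and 0.44) and by DESeq2 (0.38). miR-222-3p turned to -0.038 with the miRNA count only and miR-221-3p to 0.28 with depth as a term, which also turned miR-130a-3p to 0.047. In wild-type mice, miR-221-3p was called lower with 1 (-0.38) or 2 (-0.39) RUVr factors. There, the miRNA count only turned miR-221-5p, miR-222-3p and miR-222-5p to -0.035, -0.050 and -0.025, and depth as a term turned miR-221-5p and miR-222-3p to -0.040 and -0.015. That scaling moved the median log2FC of all miRNAs by -0.20 between ages in TG mice, -0.17 in wild-type mice and -0.12 between genotypes at 6 months.

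For TG against wild-type at 3 months, miR-222-3p turned to -0.085 with the miRNA count only, -0.092 by limma at either pseudocount, -0.050 without wild-type mice 1 and 2 and -0.044 with them counted as TG. Leaving out each wild-type mouse gave -0.13 to 0.029 for miR-221-5p, -0.013 to 0.19 for miR-222-3p and -0.20 to 0.042 for miR-222-5p, with the sign turned without mouse 2 for miR-222-3p and without mouse 4 for the 5p arms. At 6 months, miR-222-3p turned to -0.026 with RLE factors, -0.073 with the miRNA count only, -0.042 at 10 CPM, -0.026 by DESeq2, -0.015 and -0.016 with RUVr factors and -0.066 by limma at either pseudocount. In the interaction, miR-221-3p turned to -0.016 and miR-222-3p to 0.012 with the miRNA count only. miR-222-3p also turned to 0.026 by limma at either pseudocount, 0.016 without and 0.055 with wild-type mice 1 and 2 moved, and 0.054 without the 3 shallowest libraries, and miR-221-3p ranged from -0.021 to 0.18 without 1 wild-type mouse each, negative without mouse 4.

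Replicate numbers recur between groups, and same-numbered mice deviated together in part (r above 0.1 in 7 of 9, 2 of 5, 2 of 5 and 9 of 11 pairs). The mean r was 0.23 between ages in TG mice and 0.26 between genotypes at 6 months. It was 0.035 between ages in wild-type mice and 0.0068 between genotypes at 3 months. Whether same-numbered mice share more than a number was not tested. With the replicate block, miR-221-5p (0.53) and miR-222-5p (0.49) were called between ages in TG mice, miR-221-3p (-0.94) and the miR-221 arm ratio (-1.34) in wild-type mice, and the counts of called miRNAs went from 99 to 124 and from 1 to 250. It turned miR-221-5p to 0.080 and miR-222-5p to 0.029 at 3 months, and miR-221-3p to 0.15 at 6 months, where the miR-221 arm ratio went from -0.23 to -0.0037.

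Of 56 values of arm ratios, 54 kept direction and call, but with depth as a term miR-221 went from -0.60 to -0.010 between ages in TG mice, from -0.51 to -0.041 in wild-type mice and from -0.13 to -0.40 between genotypes at 3 months. For miR-222 in wild-type mice, leaving out each 3-month-old mouse gave -0.070 to 0.023, above 0 without mouse 5. For depth, miR-222-5p was called without the 3 shallowest libraries (-0.32), miR-221-5p was not with RLE factors (-0.26, just short of the limit), and with the miRNA count only the slopes of miR-221-5p, miR-222-3p and miR-222-5p turned to 0.030, 0.10 and 0.052. The r of miR-221-3p with miR-221-5p, miR-222-3p and miR-222-5p turned to 0.37, 0.58 and 0.49. Over all settings, between 66 and 312 miRNAs were called between ages in TG mice, 0 to 250 in wild-type mice, 0 to 87 and 0 to 4 between genotypes at 3 and 6 months, and 0 to 5 for the interaction.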
